A study of Homo sapiens with 8 samples.

Results

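The 10 genes described here are immediate early genes of human EA.hy926 cells, named by symbol. They are the transcription factor genes *EGR1*, *FOS*, *FOSB*, *FOSL1*, *JUN*, *JUNB*, *NR4A1*, *NR4A2* and *NR4A3*, and *IER3*, an immediate early gene whose protein is not a DNA-binding factor. For each symbol the transcript row with the highest mean FPKM (reads per kilobase of transcript, scaled to the library's total reads) was taken from the deposited table, which gave 10 of 27946 genes. EA.hy926 is an immortal hybrid of an umbilical vein endothelial cell and a lung carcinoma cell, kept here in medium with serum. RNA was sequenced from 2 libraries of control cells, from 3 lines without the enhancer E2 (ΔE2) and from 3 lines without SE12313-b (ΔSE12313-b). Both regions belong to the super-enhancer SE12313 upstream of *ADAMTS18*. E2 was the region active in the authors' reporter tests, and SE12313-b, which was inactive there, was deleted for comparison. Each deleted line is 1 clone grown from a single cell after transfection of Cas9 protein with guide RNAs, and no clone without a deletion was sequenced. The effects of the deletion and of cloning can therefore not be told apart. In the proliferation assay of the study the control cells had received guide RNAs and grew alongside the clones, and whether the sequenced controls were the same cells is not stated.

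Immediate early genes are switched on within minutes of a growth factor, stress or other stimulus, without new protein synthesis, and their mRNAs are short-lived. Kinase signals reach them mainly through SRF with its ternary complex factors, which bind the CArG box, and through CREB, which binds the cAMP response element (CRE). Fos and Jun proteins pair to form AP-1, which binds many genes of proliferation and matrix turnover. EGR1 is a zinc finger activator, and the NR4A proteins are orphan nuclear receptors, of which NR4A1 has been studied in endothelial growth. No added stimulus is described for the libraries here, which come from cells kept in medium with serum. When the medium was last changed before RNA was taken is not stated, so the levels may not be basal.

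Depth ran from 12067557 to 19101150 reads a library. The rows kept took 64.2% to 64.7% of the reads of the controls, 70.0% to 73.3% of those of ΔE2 and 75.2% to 78.4% of those of ΔSE12313-b. The control libraries differed from each other by little more than read sampling, 1.19 in chi-square for each degree of freedom over 12856 genes, against 4.00 to 22.9 between clones of 1 deletion. P-values therefore rest mainly on the spread between clones, and whether the controls were separate cultures is not stated. The mean FPKM of *ADAMTS18* was 0.770 ± 0.125 (SD, n = 2) in control cells, 0.123 ± 0.0322 (n = 3) after loss of E2 and 0.170 ± 0.0550 (n = 3) after loss of SE12313-b. Of 11 endothelial marker genes 9 had a mean of at least 1 FPKM in the control and 8 in each deletion, while the defining genes *KDR* and *CLDN5* were near or at 0 in every library. The sum over this list was 461 to 463 FPKM in the controls, 508 to 727 in the ΔE2 clones and 510 to 715 in the ΔSE12313-b clones. Of the 9 tested, *PECAM1*, *ERG* and *ESAM* were upregulated and *VWF* downregulated in ΔE2, and *PECAM1* and *ERG* upregulated and *VWF* downregulated in ΔSE12313-b. With each library centred on its median, *PECAM1* and *ESAM* in ΔE2 and *ERG* in ΔSE12313-b fell under 2-fold (log2 fold changes 0.96, 0.92 and 0.80). With 1 in place of 0.1 added to the FPKM, *VWF* did so in both deletions (-0.94 and -0.96). The 6 epithelial markers summed to 361 to 363 FPKM in the controls, 1080 to 1210 in the ΔE2 clones and 811 to 1070 in the ΔSE12313-b clones, all but a small remainder from *KRT7*, *KRT8* and *KRT18*, and *CDH1* was at 0 throughout. All 3 of these keratins were upregulated in both deletions. In ΔSE12313-b *KRT18* fell under 2-fold with that centring (0.86), and *KRT7* and *KRT18* did so with quantile normalization (0.79 and 0.64). The part of the endothelial and epithelial markers in the results below was not tested. The 4 leucocyte markers summed to at most 0.048 FPKM. Of 6 fibroblast and muscle markers 1, *ACTA2*, was tested, and it was downregulated in both deletions, with a sum over the list of 5.01 to 6.41 FPKM in the control and at most 1.79 in a clone.

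*FOSL1*, *JUN* and *IER3* were by far the most abundant members per length, and *NR4A2* and *NR4A3* the least. In the control the order of mean FPKM was *FOSL1* with 96.1 ± 3.90, *JUN* with 81.9 ± 1.40, *IER3* with 66.5 ± 0.894 and *JUNB* with 16.5 ± 1.01, followed by *EGR1* with 4.70 ± 0.315, *NR4A1* with 2.74 ± 0.121 and *FOS* with 1.29 ± 0.0332 (mean ± SD, n = 2). *FOSB*, *NR4A2* and *NR4A3* came last, at 0.412 ± 0.218, 0.376 ± 0.133 and 0.283 ± 0.163 FPKM, and their ranges overlapped. In ΔE2 the ranges of *FOSL1* and *JUN* overlapped, as did those of *NR4A1* and *FOSB*. In ΔSE12313-b *EGR1* and *NR4A1* had come down into the range of *FOS* and *FOSB*, and these 4 genes, with means between 0.765 and 0.829 FPKM, could not be ordered beyond their spread.

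**Figure D1:**
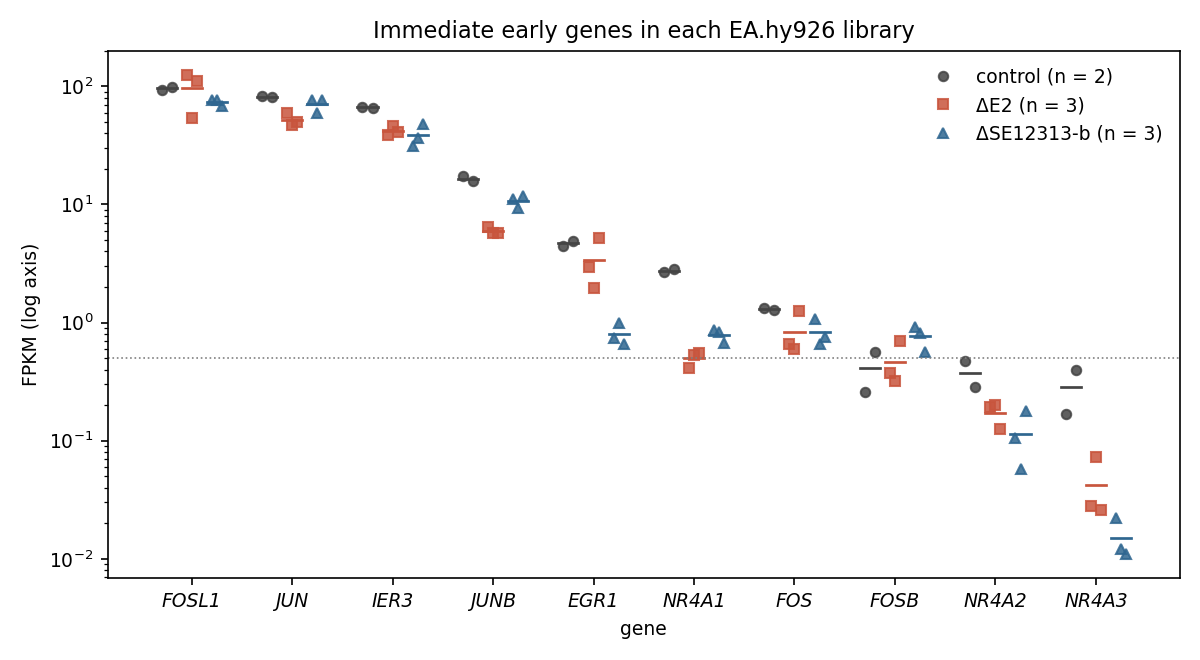
FPKM of the 10 immediate early genes in each library on a log axis, with 1 symbol per library, a bar at the mean of each group (control n = 2, ΔE2 n = 3, ΔSE12313-b n = 3) and a dotted line at the 0.5 FPKM used to choose genes for testing. *NR4A1* and *JUNB* lay under both controls in all 6 clones, whereas *EGR1* did so in all 3 ΔSE12313-b clones and in 2 of 3 ΔE2 clones.

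A gene was tested if 2 or more libraries had 0.5 FPKM or more, which left 8 of the 10 members, and the same 8 pass on the clones alone. The test was limma on log2(FPKM + 0.1) with all 3 groups in 1 model, two-sided, and a gene was called upregulated or downregulated if its p, adjusted by the Benjamini-Hochberg method over 13790 genes, was under 0.05 and its change at least 2-fold. Fold changes below are on this log2 scale, which understates the change of low genes. Both deletions were compared with the same 2 control libraries. The median of all 13790 genes lay at 0.14 on the log2 scale in ΔE2, at 0.27 in ΔSE12313-b and at -0.11 for ΔE2 against ΔSE12313-b, and the values below were not shifted by it unless this is said.

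*EGR1* (NM_001964, chr5:137801181-137805004 in GRCh37, plus strand) was downregulated in ΔSE12313-b. It had 4.48 and 4.92 FPKM in the controls, 0.734, 0.991 and 0.663 in the ΔSE12313-b clones and 2.94, 1.98 and 5.18 in the ΔE2 clones. The ΔSE12313-b clones were close to one another and far under the controls, while the ΔE2 clones differed by 2.62 times and the highest of them lay above both controls. The log2 fold change in ΔSE12313-b was -2.44 (SE 0.36, limma with Benjamini-Hochberg adjusted p = 0.000648), a ratio of 0.185 with a 95% confidence interval of 0.104 to 0.327. In ΔE2 it was -0.57 with an interval of -1.40 to 0.25 (limma, Benjamini-Hochberg adjusted p = 0.205), which holds both 0 and a 2-fold fall. This value was -0.93 without the third ΔE2 clone (limma, Benjamini-Hochberg adjusted p = 0.0241) and -0.26 without the second. Between 33 and 46 reads stood behind the ΔSE12313-b values and between 178 and 186 behind those of the controls.

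The RefSeq window around the *EGR1* start, from 250 bases before it to 50 after it, is shown because *EGR1* is the member that differed most between the deletions. Of the 7 members with a window it is also the only one with a CArG box inside that window. Bases outside the windows were not searched in any member, so a CArG box further from a start would be missed. Positions are on GRCh38.p14, and the same bases stand in GRCh37. Capitals mark the CArG boxes and the core of the CRE, TGACG on either strand.
EGR1 promoter, chr5:138465229-138465528, plus strand: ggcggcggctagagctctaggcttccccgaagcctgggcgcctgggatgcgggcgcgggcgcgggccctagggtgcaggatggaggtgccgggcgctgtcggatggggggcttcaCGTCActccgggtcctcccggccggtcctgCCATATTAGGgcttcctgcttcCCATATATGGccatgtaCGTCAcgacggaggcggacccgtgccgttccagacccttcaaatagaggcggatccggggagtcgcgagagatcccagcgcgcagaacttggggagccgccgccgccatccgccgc
Its 2 CArG boxes begin 105 and 83 bases before the start and its 2 CRE cores 135 and 66 bases before it. A CArG box was found in 1.29% of the 35116 windows of the table, and the EGR site GCGNGGGCG, of which the *EGR1* window holds 1, in 9.43%. These are matches of letters in this window and say nothing of binding in these cells.

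Of the NR4A receptors, *NR4A1* (NM_173157, chr12:52445186-52453291, plus strand) was downregulated in both deletions. It had 2.66 and 2.83 FPKM in the controls, 0.415, 0.533 and 0.554 in ΔE2 and 0.863, 0.830 and 0.674 in ΔSE12313-b. The 3 groups did not overlap, with ΔE2 lowest and the controls highest. The log2 fold change was -2.25 in ΔE2 (SE 0.21, limma with Benjamini-Hochberg adjusted p = 8.12e-05) and -1.68 in ΔSE12313-b (SE 0.21, adjusted p = 0.000276 by the same method). These are ratios of 0.210 (95% confidence interval 0.151 to 0.294) and 0.311 (0.223 to 0.435). The gene has 4 transcript rows, and with each row tested by itself all 4 were called in both deletions, with log2 fold changes of -2.15 to -2.27 in ΔE2 and -1.60 to -1.71 in ΔSE12313-b. The long non-coding gene *NR4A1AS* overlaps its 3′ end on the other strand, and how the deposited table handled strands is not stated.

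*NR4A2* (chr2:157180944-157189287, minus strand) and *NR4A3* (chr9:102584137-102629173, plus strand), the related receptors, were too low to be tested. *NR4A2* had 21 and 12 reads in the controls, 13, 12 and 6 in ΔE2 and 6, 3 and 10 in ΔSE12313-b, or 0.470 and 0.282, 0.193, 0.199 and 0.125, and 0.106, 0.058 and 0.179 FPKM. *NR4A3* had 12 and 27 reads in the controls, 3, 7 and 2 in ΔE2 and 2, 1 and 1 in ΔSE12313-b, or 0.168 and 0.398, 0.028, 0.073 and 0.026, and 0.022, 0.012 and 0.011 FPKM. Every clone lay under both controls for both genes. Scaled to the reads of the libraries, *NR4A2* stood at 0.467 times the control in ΔE2 (exact 95% interval of the pooled counts 0.276 to 0.786) and at 0.305 times in ΔSE12313-b (0.164 to 0.552). The ratios of *NR4A3* were 0.153 (0.0729 to 0.298) and 0.0543 (0.0141 to 0.150). These intervals cover counting error only, and the control libraries themselves differed by 2.37 times in the FPKM of *NR4A3*, which *STX17-DT* overlaps on the other strand. When the limit on low values was dropped and 19561 genes were tested, the log2 fold change of *NR4A3* was -1.38 in ΔE2 and -1.67 in ΔSE12313-b (limma, Benjamini-Hochberg adjusted p = 0.00682 and 0.00239), and that of *NR4A2* was -0.79 and -1.16 (adjusted p = 0.0855 and 0.0198).

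The window of *NR4A3* is shown as the one with the most CRE cores among the members, again with TGACG on either strand in capitals.
NR4A3 promoter, chr9:99821635-99821934, plus strand: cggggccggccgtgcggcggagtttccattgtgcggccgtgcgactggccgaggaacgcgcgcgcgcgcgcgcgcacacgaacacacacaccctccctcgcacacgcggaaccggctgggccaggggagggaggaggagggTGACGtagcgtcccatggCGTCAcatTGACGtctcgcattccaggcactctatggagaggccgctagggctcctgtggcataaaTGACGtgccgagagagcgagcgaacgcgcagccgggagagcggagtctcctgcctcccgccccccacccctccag
It holds 4 of them, which begin 109, 91, 83 and 25 bases before the start. Both *NR4A1* windows of the table belong to starts that lie 28570 and 13687 bases upstream of the start of the row used here, and neither holds any motif searched.

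In the Jun family, *JUNB* (NM_002229, chr19:12902310-12904125, plus strand) was downregulated in ΔE2. It had 17.2 and 15.8 FPKM in the controls, 6.44, 5.73 and 5.75 in ΔE2 and 11.0, 9.27 and 11.9 in ΔSE12313-b. The groups lay apart, ΔSE12313-b between the other two. The log2 fold change was -1.45 in ΔE2 (SE 0.12, limma with Benjamini-Hochberg adjusted p = 4.51e-05), a ratio of 0.365 with a 95% confidence interval of 0.301 to 0.442. In ΔSE12313-b it was -0.63 (SE 0.12, adjusted p = 0.00259 by the same method), under the 2-fold limit. On the other strand *HOOK2* spans the gene.

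*JUN* (NM_002228, chr1:59246463-59249785, minus strand), the founding Jun gene, had 82.8 and 80.9 FPKM in the controls, 59.9, 46.8 and 49.5 in ΔE2 and 76.6, 59.8 and 76.4 in ΔSE12313-b. All 6 clones lay under both controls, but 2 of the ΔSE12313-b clones came close to them. In ΔE2 the log2 fold change was -0.66 (SE 0.14, limma with Benjamini-Hochberg adjusted p = 0.00488), which did not reach 2-fold. In ΔSE12313-b it was -0.22 with an interval of -0.54 to 0.11 (adjusted p = 0.213, same method). It depended on the scaling, with -0.50 when each library was centred on its median and -0.76 with quantile normalization (limma, Benjamini-Hochberg adjusted p = 0.0193 and 0.00150), and was -0.10 without the second ΔSE12313-b clone.

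The windows of *JUNB* and *FOS* are shown as examples that hold a CRE core, in capitals, and a TATAAA nearer the start, as does that of *FOSB*.
JUNB promoter, chr19:12791236-12791535, plus strand: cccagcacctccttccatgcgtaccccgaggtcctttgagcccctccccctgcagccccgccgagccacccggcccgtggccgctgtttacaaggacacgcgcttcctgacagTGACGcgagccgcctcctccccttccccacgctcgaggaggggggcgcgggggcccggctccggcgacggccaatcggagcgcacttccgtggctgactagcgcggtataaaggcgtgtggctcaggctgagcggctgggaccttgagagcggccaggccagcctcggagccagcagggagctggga
FOS promoter, chr14:75278578-75278877, plus strand: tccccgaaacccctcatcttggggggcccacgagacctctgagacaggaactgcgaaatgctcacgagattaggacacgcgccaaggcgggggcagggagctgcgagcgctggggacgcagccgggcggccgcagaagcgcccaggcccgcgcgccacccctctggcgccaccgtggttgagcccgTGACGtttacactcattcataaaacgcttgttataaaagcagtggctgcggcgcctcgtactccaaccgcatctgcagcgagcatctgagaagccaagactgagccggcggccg
The CRE core begins 137 bases before the start in *JUNB* and 64 bases before it in *FOS*, and TATAAA begins 31 and 33 bases before it. At least 1 CRE core was found in 6 of the 7 members with a window, against 24.6% of all windows. The other was *NR4A1*, whose windows lie at other starts, so the start of the row used here was not searched. TATAAA, also present in *FOSB*, was found in 3 of 7, against 11.5%. The AP-1 site TGANTCA was in 0 of the 7 and in 7.71% of all windows. Only this form was searched, so variant forms, such as the TGACATCA in the *JUN* window, were not counted. *FOSL1*, *NR4A2* and *IER3* had no window in the table.

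No Fos gene was called in either deletion. *FOSL1* (NR_125339, chr11:65659607-65667997, minus strand), the most abundant subunit gene here, had 93.4 and 98.9 FPKM in the controls, 125, 54.1 and 111 in ΔE2 and 77.3, 76.8 and 68.1 in ΔSE12313-b. The ΔE2 clones lay on both sides of the controls, and those of ΔSE12313-b all lay under them. The log2 fold changes were -0.08 (95% confidence interval -0.80 to 0.64) in ΔE2 and -0.38 (-1.10 to 0.34) in ΔSE12313-b (limma, Benjamini-Hochberg adjusted p = 0.848 and 0.324). Without the second ΔE2 clone the value in ΔE2 turned to 0.30 (adjusted p = 0.0361, same method). With that clone left out the value in ΔSE12313-b stayed at -0.38 but its adjusted p was 0.00869 (limma, Benjamini-Hochberg). The row used is a non-coding transcript of the gene, and in the other 5 rows the log2 fold change lay between -0.15 and -0.11 in ΔE2 and between -0.44 and -0.39 in ΔSE12313-b.

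*FOS* (NM_005252, chr14:75745481-75748937, plus strand), the classical partner of *JUN*, had 1.32 and 1.27 FPKM in the controls, 0.657, 0.597 and 1.26 in ΔE2 and 1.07, 0.659 and 0.760 in ΔSE12313-b, from 21 to 37 reads. Every clone lay under both controls, the third of the ΔE2 clones by less than 1 read. The log2 fold changes were -0.64 (95% confidence interval -1.41 to 0.13) and -0.61 (-1.38 to 0.16) (limma, Benjamini-Hochberg adjusted p = 0.140 and 0.150). Neither interval leaves out 0 or a 2-fold fall. Without the third ΔE2 clone the value in ΔE2 was -0.94 (limma, Benjamini-Hochberg adjusted p = 0.0294), and centring each library on its median gave -0.90 in ΔSE12313-b (adjusted p = 0.0473).

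*FOSB* (NM_001114171, chr19:45971253-45978437, plus strand), a further partner of the Jun proteins, was the only tested member with a positive log2 fold change, and it was not called. It had 0.258 and 0.566 FPKM in the controls, 0.372, 0.319 and 0.702 in ΔE2 and 0.916, 0.811 and 0.567 in ΔSE12313-b. The 2 controls differed by 2.19 times, and the lowest ΔSE12313-b clone lay just at the higher control. The log2 fold changes were 0.15 (95% confidence interval -0.81 to 1.11) in ΔE2 and 0.80 (-0.16 to 1.76) in ΔSE12313-b (limma, Benjamini-Hochberg adjusted p = 0.780 and 0.130). Relative to the median of all genes the value in ΔE2 was 0.01. The value in ΔSE12313-b was 0.35 without the first control and 1.25 without the second. Between 12 and 54 reads stood behind each value, and *ERCC1* overlaps the gene on the other strand.

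The make-up of the AP-1 families followed from these levels. Among the Jun genes the share of *JUNB* in the summed FPKM was 13.9% to 14.8% in the controls, 7.70% to 8.28% in ΔE2 and 10.7% to 11.5% in ΔSE12313-b, so the 3 groups lay apart. *JUND*, the constitutive Jun gene, had a mean FPKM of 16.7 ± 0.454 in control cells, 16.6 ± 2.10 in ΔE2 clones and 15.6 ± 3.89 in ΔSE12313-b clones, and its share was 14.1% to 15.0% in the controls, 20.4% to 25.7% in ΔE2 and 14.6% to 18.2% in ΔSE12313-b. *JUN* made up 66.2% to 74.4% of the family in every library. Summed, the Jun genes stood at 114 to 117 FPKM in the controls, 69.5 to 83.7 in ΔE2 and 80.9 to 108 in ΔSE12313-b. Among the Fos genes *FOSL1* held 77.8% to 78.7% in the controls, 72.3% to 85.1% in ΔE2 and 69.9% to 71.4% in ΔSE12313-b, and *FOSL2* nearly all of the rest. *FOS* and *FOSB* each stayed at or under 1.10% of the family in every library. These shares were not tested, and a share can move because another gene of the family moves.

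**Figure D2:**
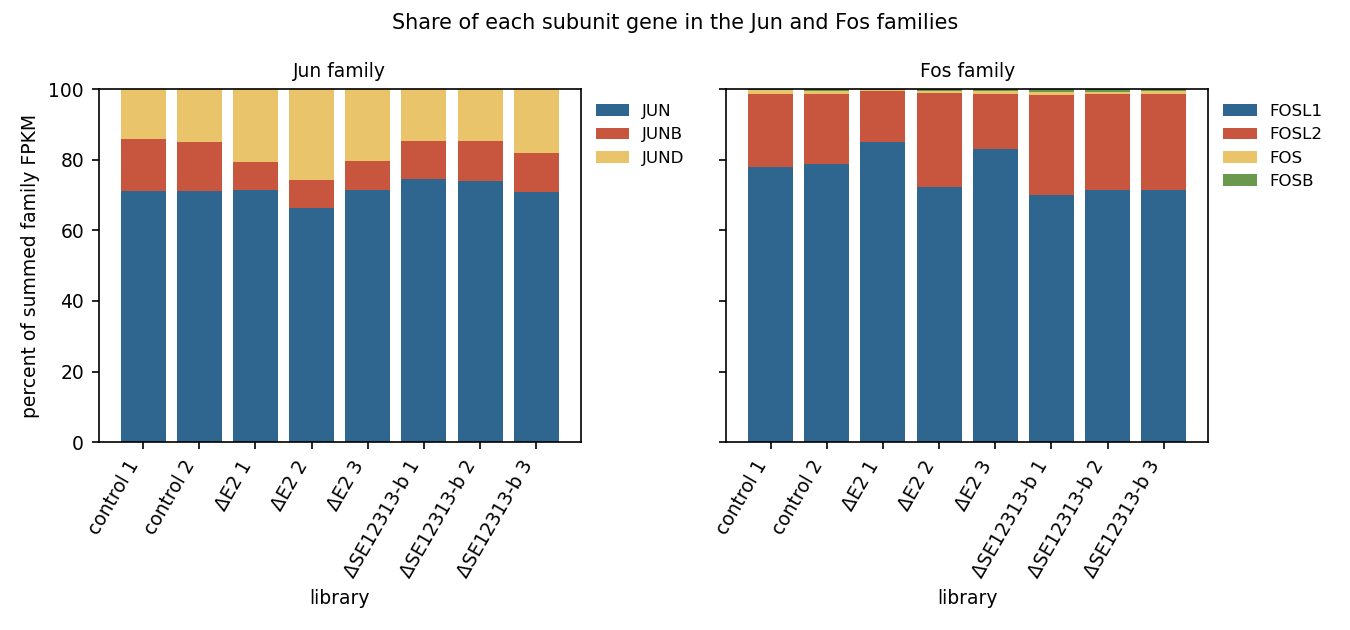
Share of each gene in the summed FPKM of the Jun family (left) and the Fos family (right), in percent, with 1 stacked bar per library. The *JUNB* band is 13.9% to 14.8% high in the controls, 10.7% to 11.5% in ΔSE12313-b and 7.70% to 8.28% in ΔE2, while *JUN* and *FOSL1* are the largest bands in every library.

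*IER3* (NM_003897, chr6:30710976-30712327, minus strand), whose protein modulates survival and NF-κB signalling, had 67.1 and 65.8 FPKM in the controls, 38.6, 45.7 and 41.1 in ΔE2 and 31.2, 36.4 and 47.5 in ΔSE12313-b. All clones lay well under the controls. The log2 fold changes were -0.67 (SE 0.16) and -0.81 (SE 0.16) (limma, Benjamini-Hochberg adjusted p = 0.00913 and 0.00318), and neither reached 2-fold. With the controls averaged to 1 sample, an alternative added after the data were seen, the adjusted p in ΔE2 was 0.0563 by the same method, and without the first or the second control it was 0.0591 and 0.0520. The deposited table lists 6 copies for this transcript, which lies in the MHC region, and *IER3-AS1* and *HCG20* overlap it on the other strand.

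**Figure D3:**
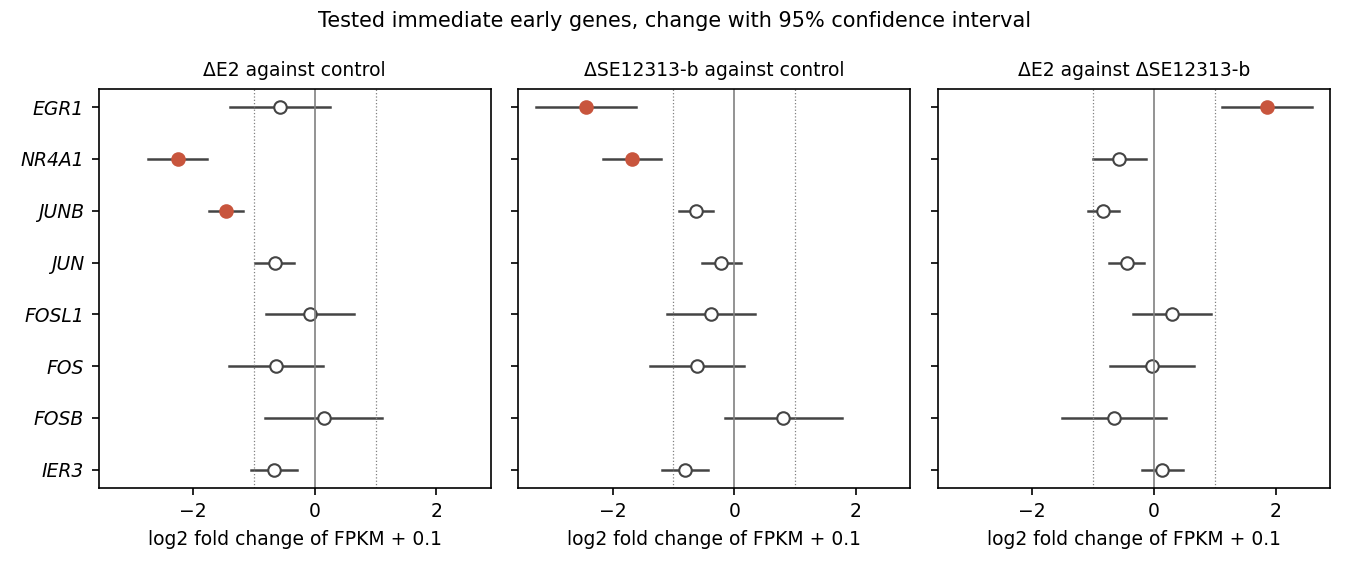
Log2 fold change of FPKM + 0.1 for the 8 tested members in the 3 comparisons, with circles at the estimate, lines for the 95% confidence interval from limma, and dotted lines at a 2-fold change. Filled circles are called, namely *NR4A1* and *JUNB* in ΔE2, *EGR1* and *NR4A1* in ΔSE12313-b, and *EGR1* between the deletions.

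Over the list, 2 of the 8 tested members were downregulated in ΔE2 and 0 upregulated (limma), while 8.36% of all tested genes were downregulated and 11.2% upregulated. In ΔSE12313-b 2 of 8 were downregulated and 0 upregulated, against 7.83% and 14.7% of all tested genes. At an unadjusted p under 0.05 there were also 0 higher members in either comparison, and limma voom on the reads called 0 higher as well. An adjusted p under 0.05, whatever the size of the change, was reached by 4 of 8 members in each deletion (limma, Benjamini-Hochberg), against 54.1% of all tested genes in ΔE2 and 59.4% in ΔSE12313-b, so this share is no higher than that of all genes. All 3 clones lay under both controls for 7 of the 10 members in ΔE2, 5 of them among the 8 tested, where 28.7% of all tested genes did so. The exceptions were *EGR1*, *FOSB* and *FOSL1*, whose clones and controls overlapped. In ΔSE12313-b this held for 9 of the 10, 7 of them tested, against 23.8%, and *FOSB* was the exception. The median log2 fold change of the tested members was -0.65 in ΔE2 and -0.62 in ΔSE12313-b, against 0.14 and 0.27 for all tested genes. The members were chosen with earlier results of these data known, so these comparisons with all genes describe the list and are no test of it. In bulk RNA, fewer cells expressing a gene and less RNA per cell cannot be told apart.

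Compared with each other, the deletions differed most in *EGR1*, which was higher in ΔE2 than in ΔSE12313-b by 1.86 on the log2 scale (95% confidence interval 1.13 to 2.60, limma with Benjamini-Hochberg adjusted p = 0.00521). This was 1 of 8 members called, against 4.23% of all tested genes called in either direction. *JUNB* was lower in ΔE2 by a log2 difference of -0.83 (-1.08 to -0.58, adjusted p = 0.00186 by the same method), under 2-fold, and every ΔE2 clone lay under every ΔSE12313-b clone. For *JUN* the difference was -0.44 (-0.73 to -0.16, limma with Benjamini-Hochberg adjusted p = 0.0344), but this p was above 0.05 in 12 of the 19 alternative fits, among them 6 of the 8 without 1 library and that with each library centred on its median (-0.31, adjusted p = 0.127). These 3 of 8 had an adjusted p under 0.05, as had 26.0% of all tested genes (limma, Benjamini-Hochberg). The log2 difference of *NR4A1* was -0.57, a ratio of 0.675 (0.501 to 0.910, limma with Benjamini-Hochberg adjusted p = 0.0589). In the fit of all 8 libraries the remaining members had adjusted p values of 0.234 or more, and their intervals reached from -1.51 to 0.21 for *FOSB*, from -0.72 to 0.66 for *FOS*, from -0.34 to 0.94 for *FOSL1* and from -0.19 to 0.48 for *IER3*. The difference of *FOSL1*, 0.30, was 0.68 without the second ΔE2 clone (limma, Benjamini-Hochberg adjusted p = 0.00358) and 0.07 without the first. The pooled counts of *NR4A3* gave a ratio of ΔE2 to ΔSE12313-b of 2.82 with an exact interval of 0.854 to 12.0, from 12 and 4 reads.

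Clones of the same deletion did not move alike. The third ΔE2 clone was the highest of its group for *EGR1*, *FOS*, *FOSB* and *NR4A1*, and the second ΔE2 clone had less *FOSL1* than the other two by more than 2-fold. For *NR4A1* the ΔE2 clones had 20, 23 and 19 reads, too few to order them firmly. The second ΔE2 clone was the lowest for 6 of the 10 members. In ΔSE12313-b the first clone was the highest for 6 of the 10. Some of these ranks rest on small gaps, such as 5.73 and 5.75 FPKM for *JUNB* in ΔE2 and 76.6 and 76.4 for *JUN* in ΔSE12313-b. Over all genes the second ΔE2 clone also stood apart. Its chi-square for each degree of freedom was 20.7 against the first clone and 16.3 against the third, with 4.0 between the first and the third. Such ranks were not counted over all genes. Within ΔE2 the highest value was 2.62 times the lowest for *EGR1*, 2.32 times for *FOSL1* and 2.12 times for *FOS*, but 1.12 times for *JUNB* and 1.33 times for *NR4A1*. In ΔSE12313-b these ratios were 1.49, 1.14, 1.62, 1.28 and 1.28.

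The genes around the members were taken from lists of related genes, which were also chosen with earlier results of these data known. Of 12 other genes for AP-1 and its dimer partners 10 were tested, and 0 were upregulated and 1 downregulated in ΔE2, 0 and 2 in ΔSE12313-b, with medians of -0.14 and -0.23. Of all tested genes 11.2% were upregulated and 8.36% downregulated in ΔE2, 14.7% and 7.83% in ΔSE12313-b. The gene of this list downregulated in ΔE2 was *BATF3*, from 1.24 ± 0.161 to 0.282 ± 0.377 FPKM (log2 fold change -2.26, limma with Benjamini-Hochberg adjusted p = 0.0339). This call was lost in 4 of the 8 fits without 1 library and with the controls averaged. In ΔSE12313-b *BATF3* stood at 0.634 ± 0.364 FPKM and was not called (-0.99, limma, Benjamini-Hochberg adjusted p = 0.284). *ATF3*, a stress-induced repressor, was downregulated in ΔSE12313-b, from 7.15 ± 1.39 to 3.44 ± 0.487 FPKM (-1.03, adjusted p = 0.00673, same method). It stood at 7.31 ± 2.20 in ΔE2, and the deletions differed by 1.03 (limma, Benjamini-Hochberg adjusted p = 0.0110). *MAFF*, a small Maf factor, was downregulated in ΔSE12313-b from 31.7 ± 2.83 to 15.9 ± 4.38 FPKM (-1.02, adjusted p = 0.00376, same method). In ΔE2 *MAFF* stood at 19.8 ± 2.53 FPKM (-0.68, limma, Benjamini-Hochberg adjusted p = 0.0256), under 2-fold. The changes of *ATF3* and *MAFF* in ΔSE12313-b were close to 2-fold. The call of *ATF3* in ΔSE12313-b was lost without the second control or the third ΔSE12313-b clone (-0.83 and -0.93), and that between the deletions without the third clone of either. The call of *MAFF* was lost without the first control or the first or second ΔSE12313-b clone (-0.93, -0.98 and -0.85).

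Of 8 relatives and partners of EGR1 and the NR4A receptors 4 were tested, with medians of -0.38 in ΔE2 and -0.14 in ΔSE12313-b. *EGR2*, *EGR3* and *EGR4* were near 0, with means of at most 0.118 FPKM. The NR4A partner *RXRA* was upregulated in ΔSE12313-b, from 5.50 ± 0.000707 to 11.2 ± 0.506 FPKM (log2 fold change 1.01, limma with Benjamini-Hochberg adjusted p = 3.08e-05), and this call, close to 2-fold, was lost without the first or the third ΔSE12313-b clone and with each library centred on its median (0.73). In ΔE2 *RXRA* stood at 8.11 ± 0.364 FPKM (0.55, limma, Benjamini-Hochberg adjusted p = 0.000841), under 2-fold. *NAB2*, a repressor of EGR1 whose gene is itself an EGR1 target, had log2 fold changes of -0.59 in ΔE2 and -0.16 in ΔSE12313-b and was not called.

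The list of other immediate early genes has 34 entries, 33 of them tested. There were 5 upregulated and 5 downregulated genes in ΔE2, 3 and 5 in ΔSE12313-b, with medians of 0.03 and -0.17. Of all tested genes 11.2% were upregulated and 8.36% downregulated in ΔE2, 14.7% and 7.83% in ΔSE12313-b. The called genes of this list thus lay on both sides, and a difference from the members was not tested. *DUSP1*, a phosphatase that turns off MAP kinases, was downregulated in both deletions, with 44.6 ± 1.26, 16.6 ± 2.57 and 12.2 ± 3.26 FPKM in control, ΔE2 and ΔSE12313-b (log2 fold changes -1.43 and -1.90, limma with Benjamini-Hochberg adjusted p = 0.000866 and 0.000162). *SIK1*, a kinase gene induced through CREB, was downregulated from 10.2 ± 0.0488 to 3.93 ± 0.557 and 4.04 ± 0.632 FPKM (-1.36 and -1.32, adjusted p = 0.000312 and 0.000281, same method). *ZFP36L1*, which codes for a protein that destabilizes mRNA, was downregulated in ΔE2, with 217 ± 5.32, 71.3 ± 5.97 and 116 ± 28.0 FPKM in control, ΔE2 and ΔSE12313-b (-1.61 and -0.93, limma, Benjamini-Hochberg adjusted p = 0.000164 and 0.00215), the latter under 2-fold. *BTG1*, an antiproliferative gene, was downregulated in both, with 17.5 ± 0.215, 8.08 ± 0.798 and 7.32 ± 0.353 FPKM (-1.11 and -1.25, adjusted p = 7.32e-05 and 3.11e-05, same method).

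Upregulated in the same list was *PLK2*, a polo-like kinase gene, with 22.8 ± 0.120, 76.4 ± 10.9 and 63.1 ± 9.87 FPKM in control, ΔE2 and ΔSE12313-b (log2 fold changes 1.73 and 1.45, limma with Benjamini-Hochberg adjusted p = 5.43e-05 and 0.000101). *NOCT*, which codes for the circadian protein nocturnin, rose from 2.82 ± 0.0148 to 9.82 ± 1.96 and 6.03 ± 1.31 FPKM (1.75 and 1.05, adjusted p = 0.000301 and 0.00323, same method), the latter call being lost without the second ΔSE12313-b clone and with each library centred on its median. *CTGF*, which codes for a matricellular protein, rose in ΔE2 from 16.8 ± 0.572 to 114 ± 55.3 FPKM (2.62, limma, Benjamini-Hochberg adjusted p = 0.00397), with clones from 53.7 to 162. In ΔSE12313-b *CTGF* stood at 44.7 ± 19.7 FPKM, with clones from 22.1 to 58.4, and was not called (1.29, adjusted p = 0.0658, same method). The deletions differed in *CTGF* by 1.33 (adjusted p = 0.0747, same method). *SOCS3*, a feedback inhibitor of cytokine signalling, was called in both deletions, with 1.82 ± 0.211, 4.23 ± 1.48 and 4.57 ± 1.71 FPKM in control, ΔE2 and ΔSE12313-b (1.11 and 1.21, limma, Benjamini-Hochberg adjusted p = 0.0386 and 0.0250). The call was lost in 5 of the 8 fits without 1 library in ΔE2 and in 4 of the 8 in ΔSE12313-b.

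Of 15 upstream factors, among them *SRF*, its partners, the CREB family and MEF2 genes, all were tested and 0 were called by limma in either deletion, with medians of -0.01 and 0.32. Of all tested genes 19.6% were called in ΔE2 and 22.6% in ΔSE12313-b, in either direction. At an unadjusted p under 0.05, 4 were higher and 2 lower in ΔE2, 7 higher and 1 lower in ΔSE12313-b, and limma voom called 0. The mean FPKM of *SRF* in control, ΔE2 and ΔSE12313-b was 5.07 ± 0.173, 5.33 ± 0.518 and 7.56 ± 0.246. Its log2 fold changes were 0.07 in ΔE2 and 0.57 in ΔSE12313-b (limma, Benjamini-Hochberg adjusted p = 0.603 and 0.00185). That of *ELK1*, a ternary complex factor, was 7.18 ± 0.754, 11.8 ± 0.761 and 12.8 ± 0.670 FPKM. *ELK1* rose by 0.71 and 0.83 on the log2 scale (adjusted p = 0.000634 and 0.000227, same method), under 2-fold. *CREM*, a CREB relative with repressor forms, was lower in ΔE2 than in ΔSE12313-b, with 5.38 ± 0.771 and 11.3 ± 0.669 FPKM (log2 difference -1.06, limma with Benjamini-Hochberg adjusted p = 0.00102), a call lost without the first ΔE2 clone (-0.98) and with each library centred on its median (-0.93).

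Of 12 genes known as AP-1 targets 10 were tested, and 0 were upregulated and 2 downregulated in ΔE2, 0 and 5 in ΔSE12313-b. Of all tested genes 11.2% were upregulated and 8.36% downregulated in ΔE2, 14.7% and 7.83% in ΔSE12313-b. The list medians were -0.82 and -1.01, against 0.14 and 0.27 for all tested genes, which is no test for a list chosen with earlier results known. At an unadjusted p under 0.05 (limma), 2 targets were higher and 6 lower in ΔE2, 1 and 7 in ΔSE12313-b. The list thus did not fall as a whole. The matrix metalloproteinase gene *MMP10* fell in both, with 18.5 ± 0.252, 0.118 ± 0.0540 and 0.714 ± 0.723 FPKM in control, ΔE2 and ΔSE12313-b (log2 fold changes -6.45 and -4.86, limma with Benjamini-Hochberg adjusted p = 8.33e-05 and 0.000271). *MMP1*, the collagenase gene, fell from 1532 ± 21.7 to 529 ± 194 and 596 ± 220 FPKM (-1.61 and -1.42, adjusted p = 0.00795 and 0.0123, same method), but with the controls averaged to 1 sample the adjusted p was 0.0519 and 0.0671. The calls of *MMP1* were also lost without the second control in ΔE2 (limma, Benjamini-Hochberg adjusted p = 0.0523) and without either control in ΔSE12313-b (0.0641 and 0.0683). *CXCL8*, a neutrophil chemokine gene, was downregulated in ΔSE12313-b from 8.11 ± 0.190 to 0.434 ± 0.304 FPKM (-4.15, limma, Benjamini-Hochberg adjusted p = 0.000513) and stood at 3.10 ± 1.66 in ΔE2, where the clones ranged from 2.03 to 5.01. The deletions differed in *CXCL8* by 2.67 (adjusted p = 0.00852, same method). *IL6*, a cytokine gene named here after its values were seen, was also called in ΔSE12313-b, with a log2 fold change of -1.40, and this call was lost in 3 of the 8 fits without 1 library. In ΔE2 the log2 fold change of *IL6* was -0.81, and it was not called.

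**Figure D4:**
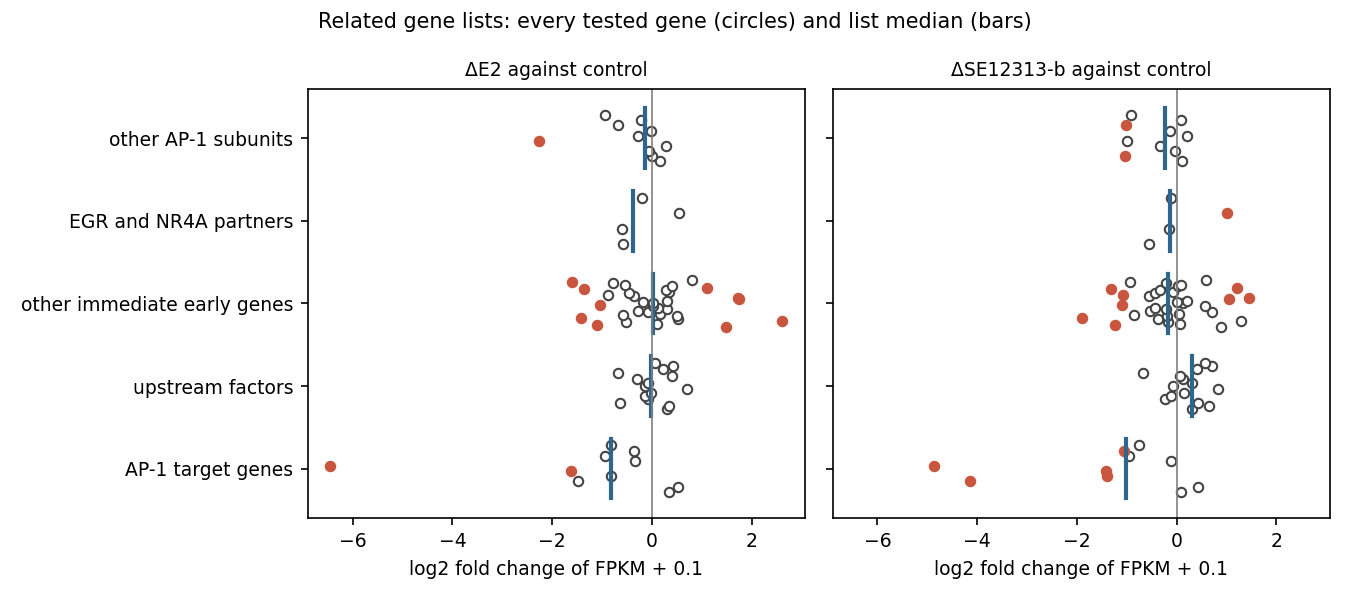
Log2 fold change of FPKM + 0.1 for every tested gene of the 5 related lists in ΔE2 (left) and ΔSE12313-b (right) against the control, with filled circles for called genes and a bar at the median of each list. The AP-1 target genes have medians of -0.82 and -1.01, with 0 called but some uncalled genes on the right of 0, whereas the other immediate early genes have called genes on both sides.

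The genes whose profiles lay closest to a called member were found by the root mean square difference of log2(FPKM + 0.1), each gene centred on its own mean over the 8 libraries, among all tested genes. The 2 closest to *JUNB* were *DALRD3* and *SPSB3*, at differences of 0.0986 and 0.104, and those closest to *NR4A1* were *SH2D2A* and *CCNL2*, at 0.133 and 0.195. For *EGR1* they were *MIR3651*, a row for a microRNA precursor, and *SERPINE2*, at 0.266 and 0.323. The mean FPKM of *SERPINE2* was 1.82, 1.10 and 0.376 in control, ΔE2 and ΔSE12313-b. This is a likeness over 8 libraries in 3 groups and nothing more.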

How the data were processed

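RNA was depleted of ribosomal RNA and sequenced from 8 EA.hy926 libraries with a directional kit and single-end reads. Per the labels, the authors used Trim Galore 0.4.4, STAR 2.5.4b and GRCh37, and deposited 1 table of FPKM with 65572 transcript rows. The program, RefSeq release and strand setting behind these FPKM are not given in the sources used here. For their own DEGs the authors used other counts, with edgeR, which were not used here.

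Groups came from the genotype labels. FPKM times length fell on whole multiples of 1 step in each library (100% of values checked, within 0.1 read), which gave the reads behind each value. They served for depth and 1 alternative. Of each symbol the row with the highest mean was kept. Genes with at least 0.5 FPKM in at least 2 libraries, 13790 of 27946, were tested with limma 3.58.1 in R 4.3.3 on log2(FPKM + 0.1), with a trend and 3 groups, two-sided, with Benjamini-Hochberg adjustment over all tested genes. Called genes had an adjusted p under 0.05 and a 2-fold change. P-values measure the spread between these clones and libraries. The fit was first tested on simulated data, drawn with the same spread in every group. In the data here controls and clones differ in spread, so that test does not cover this case. Counting intervals are exact (Clopper-Pearson on pooled reads, 95%) and cover counting error only.

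The members and lists were chosen with earlier results of these data known. The text names all 10 members, of each list up to 3 called genes with the largest change in each direction, and the 2 closest profiles for each called member. In addition the markers, *IL6*, *JUND*, *FOSL2*, *NAB2*, *SRF* and *ELK1* are named, and *ADAMTS18*, which the study gives as the target of the super-enhancer. Alternatives were pseudocounts of 0.01 and 1, no limit on low values, centring, quantile normalization, a replicate block, no trend, 2 groups at a time, every transcript row, voom on the reads, 1.5-fold, and each library left out. Averaged controls were added after the data were seen. Promoter sequences are those of RefSeq on GRCh38.p14 and matched 7 of the 10 members. The values of 1 gene counted in the lists are not reported here.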

Additional observations from a re-analysis of the deposited data

Results flagged for a closer look

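Differences between the deletions were picked out where the direct test of ΔE2 against ΔSE12313-b passed (limma, Benjamini-Hochberg adjusted p under 0.05 for the members, and also 2-fold for genes of the lists). *EGR1* differed by 1.86 on the log2 scale, with 3 of 3 ΔE2 clones above all ΔSE12313-b clones. *JUNB* differed by -0.83 and *JUN* by -0.44, with 3 of 3 ΔE2 clones under all ΔSE12313-b clones for *JUNB*, and for *JUN* with the highest ΔE2 clone at 59.9 FPKM and the lowest ΔSE12313-b clone at 59.8. The adjusted p of *JUN* was above 0.05 in 12 of 19 alternative fits. Among the genes of the lists *CXCL8* differed by 2.67, *ATF3* by 1.03 and *CREM* by -1.06.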

How the results depend on the processing

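The calls of *JUNB* and *NR4A1* in ΔE2, of *EGR1* and *NR4A1* in ΔSE12313-b and of *EGR1* between the deletions were kept under all 19 alternative fits. The log2 fold changes ranged from -1.72 to -1.33 and -2.45 to -1.32 in ΔE2, from -2.72 to -1.67 and -1.97 to -1.07 in ΔSE12313-b, and from 1.22 to 2.18 between the deletions. The count of members called, 2 in each deletion and all lower, was 4 in both with quantile normalization (adding *JUN* at -1.04 and *IER3* at -1.03 in ΔE2, *JUNB* at -1.02 and *IER3* at -1.30 in ΔSE12313-b) and 4 in both at 1.5-fold. It was 4 in ΔSE12313-b without a limit on low values, which tests *NR4A2* and *NR4A3*. Between the deletions 1 member was called and at 1.5-fold 2, of which 1 lower. Centring each library added *IER3* at -1.10 in ΔSE12313-b. Leaving out each library in turn, or averaging the controls (added after the data were seen), kept the members called at 2, 2 and 1. Genes called numbered 2697 in ΔE2, 3112 in ΔSE12313-b and 583 between the deletions, against 1718, 2004 and 240 with a pseudocount of 1, 7364, 8673 and 1649 with every transcript row tested, and 5054, 5802 and 1631 at 1.5-fold. With centring, 1170 genes were called higher and 1464 lower in ΔE2, against 1544 and 1153, and 1201 and 1570 in ΔSE12313-b, against 2032 and 1080. Uncalled values that changed sign were *FOSB* in ΔE2 (-0.0092 centred, -0.13 without the third ΔE2 clone, and -0.30 to 0.60 over all fits without 1 library), *FOSL1* in ΔE2 (0.30 without the second ΔE2 clone, limma, Benjamini-Hochberg adjusted p = 0.0361, and -0.31 to 0.30 over all such fits), and *FOS* between the deletions (0.10 centred, 0.011 with quantile normalization, and -0.33 to 0.15 over the fits without 1 library). The cause was not tested. Libraries with the same replicate number did not deviate together (correlations of -0.08 to 0.107), so the numbers do not pair them, and with a replicate block the members called stayed at 2, 2 and 1, with 2530 genes called in ΔE2 and 2962 in ΔSE12313-b. Depth limits *NR4A2* and *NR4A3*, at most 27 reads a library.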
